A study of Mus musculus with 9 samples.

Results

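Brown adipose tissue takes up lipid from the blood, and the mRNAs of 10 genes that act along this route were followed across 9 libraries. The genes were chosen by symbol and comprise Lpl, Gpihbp1, Lmf1, Angptl4, Vldlr, Cd36, Slc27a1, Fabp3, Fabp4 and Fabp5. All 10 were present among the 16937 genes listed in the deposited tables. Bulk RNA was sequenced from the brown adipose tissue of adult mice on the C57Bl/6J background, with 3 animals in each of 3 groups. Wild-type mice were kept at 23 °C (WT RT) or spent 8 h at 4 °C (WT Cold), and whole-body Gcn2-/- mice spent 8 h at 4 °C (GCN2 KO Cold). GCN2 is the amino acid sensing eIF2α kinase encoded by Eif2ak4. Animals were housed singly for acclimation before the exposure, and the paper states that the sequenced groups held both males and females. No library is tied to an individual mouse or sex, so sex may add to the spread and its balance between groups is not known. GCN2 KO tissue at room temperature was not analysed here, so the response of the knockout to cold cannot be measured on its own.

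Triglyceride reaches tissues inside lipoproteins, chylomicrons and VLDL, which are too large to cross the capillary wall. Lipoprotein lipase, made in adipocytes, is carried to the capillary lumen by GPIHBP1 on endothelial cells, where it releases fatty acids from the lipoproteins. The fatty acids are taken up with the help of CD36 and fatty acid transport proteins and are bound in the cytosol by fatty acid binding proteins (FABPs). In brown fat they serve as fuel for heat production and replenish lipid droplets, and Lpl activity in this tissue is known to rise in the cold.

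The libraries held between 27058799 and 30768064 reads, and the least covered member, Lmf1, had at least 744 reads in every library. Each group's libraries are lettered A to C by their codes in the files. The 3 WT RT codes start with other letters than the 6 cold ones. What the letters stand for is not given, and cold and any difference that goes with them cannot be told apart. Eif2ak4, the targeted gene, was not lower in the knockout. It measured 171, 225 and 231 normalized counts in WT Cold libraries A, B and C and 347, 371 and 350.0 in the GCN2 KO Cold-labelled libraries. The fitted log2 difference was 0.78 (adjusted p = 0.0932, limma) and these 2 groups did not overlap. Reads were counted over the whole gene and the deleted part is not given in the sources used here, so this count does not check the label, and the group is called "the GCN2 KO Cold-labelled libraries" wherever a direction is drawn. The defining markers of brown adipocytes were present in every library, with a summed level of 7797 to 9410 CPM (reads per 1000000 reads of the library) in WT RT, 13200 to 14388 in WT Cold and 16058 to 16229 in the GCN2 KO Cold-labelled libraries. This sum includes Ucp1, Elovl3 and Ppargc1a, which were also listed as cold-induced genes, so it does not measure brown adipocyte content. The 6 mature adipocyte markers summed to 6836 to 7447 CPM in WT RT and 5910 to 6631 in WT Cold. They summed to 4978 to 6271 CPM in the GCN2 KO Cold-labelled libraries. Markers of other cell types were present as well. Markers counted as higher or lower, here and below, passed limma at an adjusted p under 0.05 unless overlap is named. Of all genes, 13.6% were called higher and 14.1% lower in WT Cold against WT RT. In the GCN2 KO Cold-labelled libraries against WT RT these shares were 16.4% and 17.8%. Against WT RT, all 5 red blood cell markers were higher in WT Cold and in the GCN2 KO Cold-labelled libraries (260 to 345 CPM summed in WT RT, 572 to 2279 and 1084 to 2081), and 4 of 8 pericyte and fibroblast markers were lower in each (990 to 1102 CPM summed in WT RT, 826 to 966 and 605 to 752). Their part in the members' differences was not tested, and in bulk tissue fewer cells of a type and less RNA per cell cannot be told apart.

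The members lie on 7 chromosomes of GRCm38 (GENCODE M21). Lpl spans chr8:68880491-68907448 and Slc27a1 chr8:71568882-71587302, both on the plus strand. Gpihbp1 lies at chr15:75596628-75599481 and Vldlr at chr19:27216484-27254231, also on the plus strand. Lmf1 (plus strand, chr17:25579085-25662826) and Angptl4 (minus strand, chr17:33773750-33781830) share chromosome 17. Cd36 occupies chr5:17781690-17888801 on the minus strand. Fabp3 lies at chr4:130308595-130315463 on the plus strand, whereas Fabp4 (minus strand, chr3:10204088-10208576) and Fabp5 (plus strand, chr3:10012548-10016607) are neighbours on chromosome 3. In the annotation, 81 of the exon bases of Fabp3 (9.84%) also belong to Zcchc17 on the opposite strand, a gene with a mean of 26.7 CPM, and the sources used here do not state whether strand was used in counting. Fabp3-ps1, a processed pseudogene of Fabp3, is listed with 29 to 261 reads per library, against 15116 to 58162 for Fabp3 itself.

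The following sequences show the DNA upstream of 3 members that were called higher in WT Cold against WT RT and that have a window in RefSeq's table for GRCm38.p6. Each is read 5′ to 3′ on the strand of its gene, covers at most the 250 bases before a RefSeq transcript start, and leaves out bases that the annotation gives to an exon. Capitals mark matches, on either strand, to 1 of 6 motifs given by their letters: AGGTCA, the half-site of many nuclear receptors, 2 half-sites in the same direction with any 1 base between them, a direct repeat that PPAR:RXR can bind, TGACGTCA, the cAMP response element, CCAAT, the box of that name, TATAAA, the TATA box, and GGGCGG, the GC box. The repeat contains AGGTCA, so a match to it is also a match to the half-site.
Fabp3, chr4:130308488-130308594, plus strand: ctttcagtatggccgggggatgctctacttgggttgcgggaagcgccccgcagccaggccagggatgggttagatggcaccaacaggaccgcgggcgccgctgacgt
Cd36, chr5:17835897-17836146, minus strand: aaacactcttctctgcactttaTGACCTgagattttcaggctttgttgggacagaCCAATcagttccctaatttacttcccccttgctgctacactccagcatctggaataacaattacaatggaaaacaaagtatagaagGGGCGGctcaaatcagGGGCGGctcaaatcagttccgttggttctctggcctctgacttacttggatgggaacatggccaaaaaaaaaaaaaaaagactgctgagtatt
Vldlr, chr19:27216234-27216483, plus strand: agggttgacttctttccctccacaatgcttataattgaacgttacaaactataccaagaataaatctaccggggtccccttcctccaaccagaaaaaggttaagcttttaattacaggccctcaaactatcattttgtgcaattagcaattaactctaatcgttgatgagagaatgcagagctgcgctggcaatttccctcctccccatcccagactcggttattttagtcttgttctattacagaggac

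The Cd36 window lies inside the annotated gene, and no annotated transcript holds the 30 bases that follow it. It holds a nuclear receptor half-site 223 to 228 bases before the start, a CCAAT box 191 to 195 bases before it and 2 GC boxes at 104 to 109 and 88 to 93 bases. The whole 250-base window of Fabp3 and the Vldlr window shown hold none of the 6 motifs, and a second Vldlr window holds a CCAAT box and a GC box. Among 32851 such windows of 250 bases, 14.02% hold AGGTCA, 0.0335% the direct repeat, 1.55% TGACGTCA, 33.8% CCAAT, 12.4% TATAAA and 32.7% GGGCGG. Windows were found for 5 of the 10 members, the other two being Slc27a1, with 3, and Lmf1, with 1. Lpl, Gpihbp1, Angptl4, Fabp4 and Fabp5 had no entry.

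Together the 10 genes took 1.74% ± 0.02 (SD, n = 3) of all reads in WT RT, 2.69% ± 0.08 in WT Cold and 2.81% ± 0.09 in the GCN2 KO Cold-labelled libraries. Lpl and Fabp4 made up most of this, with 79.7%, 79.3% and 81.1% of the members' reads in the same order. To compare levels between genes, CPM were divided by the length of the longest principal transcript in the annotation. On this per-length scale Fabp4, the abundant adipocyte FABP, was the highest in each group, with 11491 ± 196 CPM per kb (SD, n = 3) in WT RT, 12754 ± 382 in WT Cold and 14876 ± 209 in the GCN2 KO Cold-labelled libraries. Lpl followed in WT RT with 875 ± 29 CPM per kb, ahead of Fabp3 with 627 ± 25 and Cd36 with 622 ± 24, and the libraries of Fabp3 and Cd36 overlapped. Further down, Fabp5 (145 ± 24), Gpihbp1 (105 ± 4), Slc27a1 (84.0 ± 4.5) and Angptl4 (71.9 ± 9.9) followed each other, with overlap only between Slc27a1 and Angptl4. Vldlr (21.5 ± 2.0) and Lmf1 (16.9 ± 0.5) were the lowest of the 10 in WT RT.

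In WT Cold the order per length changed in the middle. Lpl stood at 2411 ± 42 CPM per kb (SD, n = 3), Fabp3 at 1945 ± 354 and Cd36 at 903 ± 87, with no overlap between neighbours. Gpihbp1 (214 ± 2) moved ahead of Fabp5 (58.2 ± 4.6), and Fabp5 then overlapped with Angptl4 (54.9 ± 13.1). In the GCN2 KO Cold-labelled libraries, Lpl (2293 ± 38) and Fabp3 (2069 ± 539) overlapped, as did Slc27a1 (47.4 ± 10.5) and Angptl4 (37.4 ± 4.0). The order depends on the length used: with all annotated exons of a gene merged, an alternative chosen after seeing the data, Fabp4 stayed first and Lmf1 last in each group, but Fabp3 came second and 17 of the 30 positions moved.

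**Figure D1:**
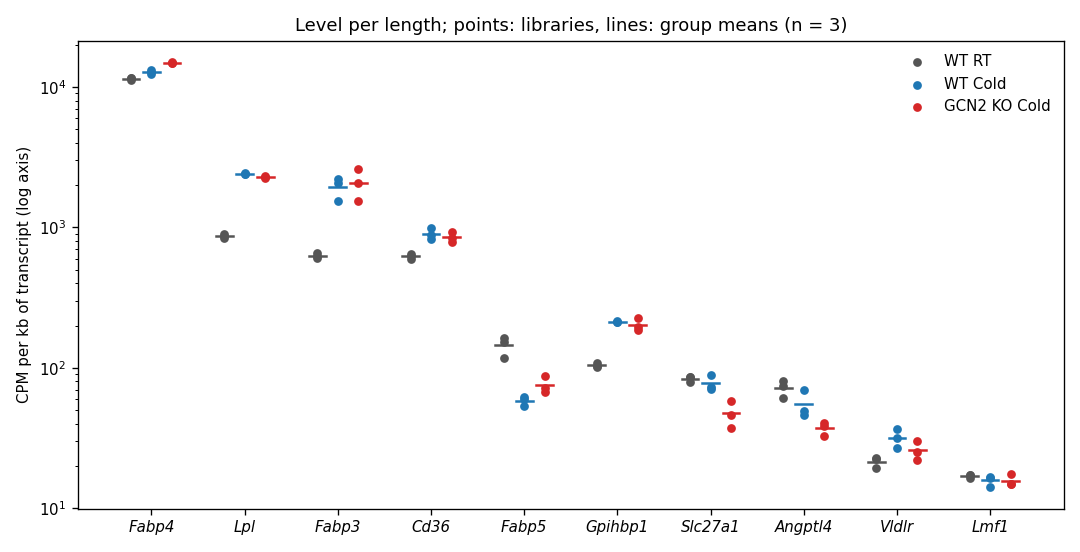
Level per transcript length of each gene (CPM per kb, log axis) in the 9 libraries, grouped by gene and coloured by group, with points for libraries and lines for means of 3. Fabp4 is the highest in each group (means of 11491, 12754 and 14876), Lpl and Fabp3 are both higher in the cold groups than in WT RT, and Lmf1 is the lowest.

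The first comparison asked how 8 h at 4 °C changed these genes in wild-type tissue. Lpl, its endothelial carrier Gpihbp1, the muscle-type binding protein Fabp3, the fatty acid receptor Cd36 and the lipoprotein receptor Vldlr were higher in WT Cold, and the epidermal-type binding protein Fabp5 was lower. Lmf1, Angptl4, Slc27a1 and Fabp4 did not pass the test. A gene passed at an adjusted p under 0.05 in limma, fitted to log2(normalized count + 1) and adjusted by Benjamini-Hochberg over all 16679 genes of the table. With this rule 5 members were higher, against 13.6% of all genes, and 1 was lower, against 14.1%. With an absolute log2 fold change over 1 as well, 4 members passed (Lpl, Gpihbp1, Fabp3 and Fabp5), against 8.14% of all genes. Without overlap between the groups, 6 members were higher and 1 was lower, against 45.5% of all genes in either direction. The median log2 fold change of the 10 was 0.43, against 0.003 over all genes. Values below are normalized counts, the reads divided by the library's size factor within the table.

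Lpl, the enzyme that hydrolyses triglyceride in circulating lipoproteins, measured 105007, 97085 and 107780.0 in WT RT libraries A, B and C and 292270.0, 306854 and 306055 in WT Cold. Every cold library was above every room temperature library, and the spread within each group was small. Lpl was 2.92-fold higher in WT Cold (log2 fold change 1.55, SE 0.10, limma adjusted p = 0.000131). Gpihbp1, which captures the lipase and carries it across capillary endothelium, gave 2415, 2325 and 2690.1 in WT RT against 5231, 5380.2 and 5457 in WT Cold. These ranges did not overlap, and the difference was 2.17-fold (log2 fold change 1.11, SE 0.08, limma adjusted p = 0.000159). Markers of endothelium, in which Gpihbp1 is expressed, moved with it in part. Of 12, limma called 3 higher in WT Cold (Pecam1, Esam and Kdr, log2 fold changes 0.66, 0.65 and 0.47) and none lower. Without overlap, 5 were higher and 1 was lower. The 12 markers summed to 743 to 811 CPM in WT RT and 848 to 1022 in WT Cold. Their part in the Gpihbp1 result was not tested.

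Lmf1, the endoplasmic reticulum protein needed to fold active Lpl, did not follow its client. It measured 908, 888 and 909 in WT RT and 779.6, 948 and 958 in WT Cold, and the groups overlapped. The log2 fold change was -0.02 (95% interval -0.25 to 0.22, limma adjusted p = 0.917), an interval that lies below the whole interval for Lpl (1.31 to 1.78). Angptl4, a secreted inhibitor that inactivates Lpl, gave 7538, 5646 and 7306 in WT RT and 4505, 4902 and 7209 in WT Cold. Cold libraries A and B were below all 3 room temperature libraries, and cold library C was among them. The log2 fold change was -0.32 (SE 0.19, limma adjusted p = 0.237), and without WT Cold C it was -0.53 with an adjusted p of 0.0163.

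Vldlr, a receptor that binds triglyceride-rich lipoproteins, measured 5080.4, 4283 and 5428 in WT RT and 7444, 6472 and 9075 in WT Cold. The groups did not overlap, and Vldlr was 1.55-fold higher in WT Cold (log2 fold change 0.63, SE 0.14, limma adjusted p = 0.0135). Cd36, the membrane protein that promotes uptake of long-chain fatty acids, gave 60222, 56462 and 65509.7 in WT RT and 100610.0, 91744 and 87289.5 in WT Cold. It was 1.54-fold higher without overlap (log2 fold change 0.62, SE 0.10, limma adjusted p = 0.00403). Slc27a1, the fatty acid transport protein FATP1, which also has acyl-CoA synthetase activity, ranged from 6144 to 7243 in WT RT and from 5885 to 7785 in WT Cold. These ranges overlapped, with a log2 fold change of -0.04 (95% interval -0.31 to 0.24, limma adjusted p = 0.848).

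The 3 binding proteins went different ways. Fabp3 measured 14004, 14991 and 15385 in WT RT and 54046, 51986 and 39581 in WT Cold. It was the member with the highest fold change, 3.25-fold higher in WT Cold (log2 fold change 1.70, SE 0.12, limma adjusted p = 0.000208), and by size of rise it stood at position 179 of the 16679 genes. Fabp3 is also abundant in skeletal muscle, of which 14 markers were all present. Of the 14, 3 were called higher in WT Cold and none was called lower. Their summed level was 2797 to 3396 CPM in WT RT and 2665 to 4442 in WT Cold. WT Cold library C had the lowest muscle sum and the lowest Fabp3 of the 3 WT Cold libraries. The part of muscle in the Fabp3 result was not tested.

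Fabp4, the adipocyte binding protein that macrophages and endothelium also express, gave 284816, 289571 and 312068 in WT RT and 339121, 357046 and 346084 in WT Cold. All 3 cold libraries were higher, but the 1.18-fold difference did not pass the test (log2 fold change 0.23, SE 0.11, limma adjusted p = 0.164), whereas with DESeq2 on the recovered reads its adjusted p was 0.0293. Fabp5, which is found in keratinocytes, macrophages, endothelium and adipocytes, fell from 3266, 4238 and 4815 in WT RT to 1755, 1851 and 1633 in WT Cold. The groups did not overlap, and the log2 fold change was -1.22 (SE 0.14, limma adjusted p = 0.00107). Macrophage markers moved in the same direction in part, with 5 of 10 called lower and 1 called higher in WT Cold. They summed to 300 to 434 CPM in WT RT against 225 to 310 in WT Cold. Their part in the Fabp5 result was not tested.

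**Figure D2:**
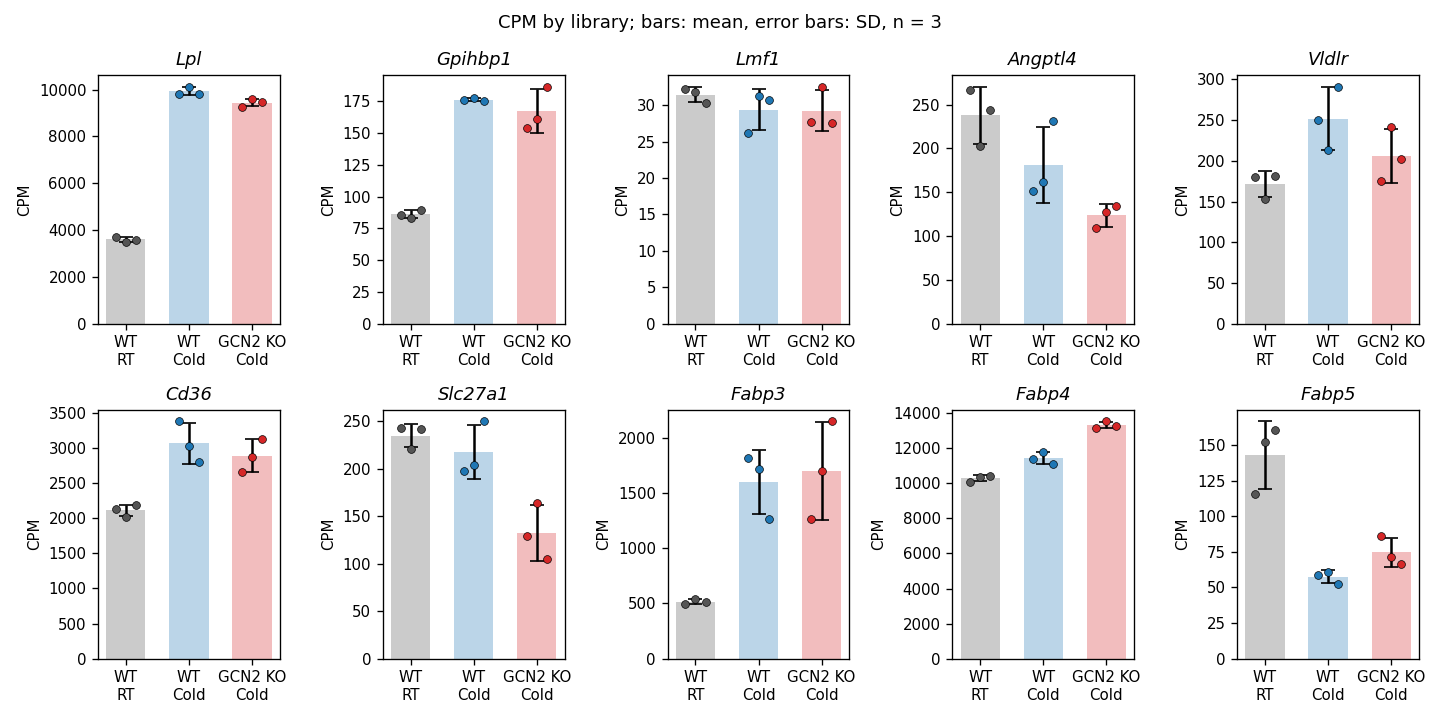
CPM of each gene in each library, from recovered reads scaled to the library total, with 1 panel per gene, axes from 0, bars for means, error bars for SD and n = 3. Lpl, Gpihbp1, Cd36 and Fabp3 sit higher in both cold groups, Fabp5 sits lower, and Slc27a1 and Angptl4 are lowest in the GCN2 KO Cold-labelled libraries.

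Because the members moved by different amounts, their ratios on the per-length scale shifted, which is given as a description. For every 100 Lpl transcripts there were 11.96 ± 0.49 Gpihbp1 transcripts (SD, n = 3) in WT RT and 8.86 ± 0.10 in WT Cold. The inhibitor Angptl4 stood at 8.20 ± 0.87 per 100 Lpl in WT RT and at 2.28 ± 0.57 in WT Cold. Cd36 stood at 71.1 ± 2.2 and 37.5 ± 3.7, and Lmf1 at 1.94 ± 0.08 and 0.656 ± 0.057. None of these 4 ratios overlapped between WT RT and WT Cold. All 4 have Lpl as denominator, which was itself higher without overlap, so they are not 4 separate results. Over all genes, 45.5% had groups without overlap in this comparison. Among the binding proteins, Fabp3 went from 5.11% ± 0.14 of the summed Fabp3, Fabp4 and Fabp5 level in WT RT to 13.1% ± 1.9 in WT Cold, and Fabp5 went from 1.18% ± 0.18 to 0.394% ± 0.013. Fabp4 was the main one in both groups, at 93.7% ± 0.3 and 86.5% ± 1.9. These ratios and shares also depend on the length used: with all annotated exons merged, Angptl4 per 100 Lpl was 19.5 in WT RT and 5.42 in WT Cold, Cd36 172 and 90.3, Lmf1 0.674 and 0.228, and Gpihbp1 9.83 and 7.28. On that scale the Fabp3 share was 21.2% and 42.9%, and the Fabp4 share 77.5% and 56.7%.

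**Figure D3:**
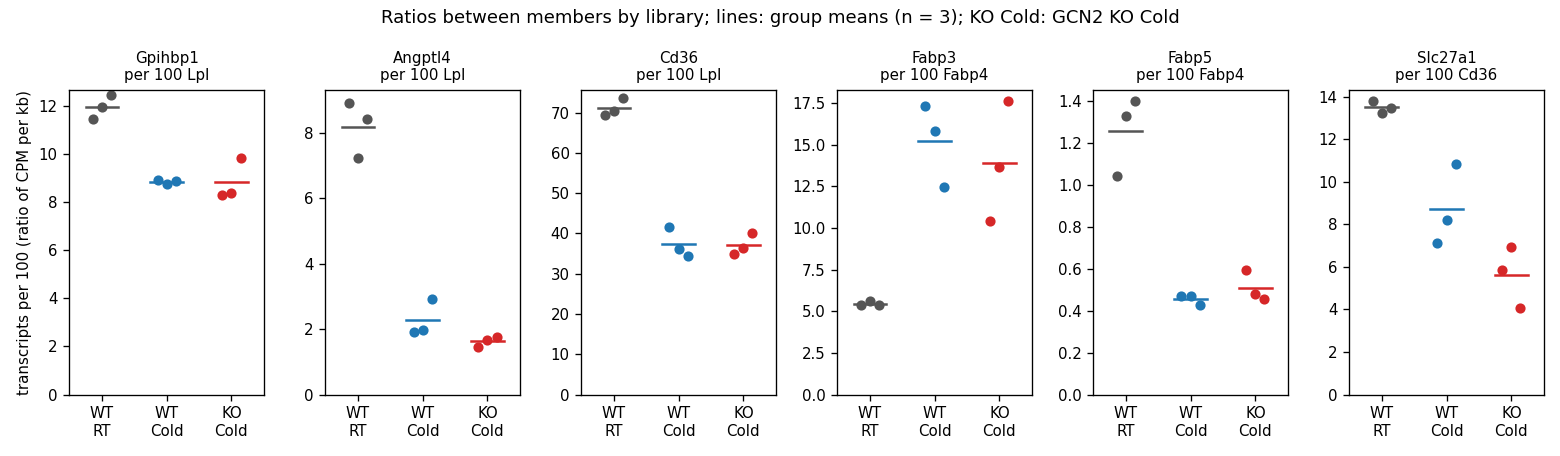
Ratios between genes on the per-length scale in each library, 1 panel per ratio with its own axis from 0, points for libraries and lines for means of 3. Angptl4 per 100 Lpl averages 8.20 in WT RT and 2.28 in WT Cold, with 1.63 in the GCN2 KO Cold-labelled libraries, while Fabp3 per 100 Fabp4 averages 5.45, 15.2 and 13.9.

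The second comparison set the GCN2 KO Cold-labelled libraries against WT Cold. No member passed with limma over 16312 genes, where 0.178% of all genes were called higher and 0.227% lower. At an unadjusted p under 0.05 there were 4 members (Fabp5, Slc27a1, Fabp4 and Angptl4) and 2500 genes in all. edgeR called 0 members, against 0.27% of all genes. DESeq2 called 3, with Fabp4 and Fabp5 higher and Slc27a1 lower, against 1.45% of all genes higher and 1.84% lower. The median log2 fold change of the 10 was 0.04, against -0.003 over all genes. Normalized counts in this table use other size factors than those above.

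Lpl measured 259742, 274548 and 271864 in WT Cold and 270422, 281304 and 279606 in the GCN2 KO Cold-labelled libraries. The ranges overlapped, and the log2 difference was 0.04 with a 95% interval of -0.20 to 0.29 (limma adjusted p = 0.881). Gpihbp1 ranged from 4649 to 4848 in WT Cold and from 4491 to 5518 in the GCN2 KO Cold-labelled libraries, with a log2 difference of 0.04 (interval -0.17 to 0.25). Cd36 differed by 0.03 (interval -0.21 to 0.28), Lmf1 by 0.11 (-0.17 to 0.39) and Vldlr by -0.17 (-0.53 to 0.19). Each of these 5 intervals includes 0, and the sign for Lpl, Gpihbp1, Lmf1 and Cd36 turned when reads were scaled to the library total, which moved the median of all genes from -0.003 to -0.09. Fabp3 had the highest standard error of the 10 (0.21), at 48031, 46513 and 35159 in WT Cold and 36788, 49798 and 63607 in the GCN2 KO Cold-labelled libraries. Its log2 difference was 0.19 (interval -0.30 to 0.68), and the groups overlapped. Without the library labelled GCN2 KO Cold C it was -0.0008, without the one labelled A it was 0.39, without WT Cold C it was 0.05, and with reads scaled to the library total it was 0.07.

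Fabp4 gave 301378, 319455 and 307421 in WT Cold and 384596, 397340.0 and 392312 in the GCN2 KO Cold-labelled libraries. All 3 of the latter were above all 3 WT Cold libraries, by 0.34 on the log2 scale (SE 0.11), with an adjusted p of 0.216 in limma and 0.0065 in DESeq2. With reads scaled to the library total the log2 difference was 0.22 (limma adjusted p = 0.392). Brown adipocyte markers differed in the same direction, with a median log2 difference of 0.31 and 5 of 7 higher without overlap, although none of the 7 passed. The 6 mature adipocyte markers had a median log2 difference of -0.05, 0 higher and 1 lower without overlap, and none passed. The part of either list in the Fabp4 difference was not tested. Fabp5 measured 1560.1, 1656 and 1451 in WT Cold and 2505, 2095 and 1969.6 in the GCN2 KO Cold-labelled libraries, again without overlap. The log2 difference was 0.49 (SE 0.11), with an adjusted p of 0.117 in limma and 0.0148 in DESeq2. Of 10 macrophage markers none passed, and their median log2 difference was -0.47. Their part in the Fabp5 difference was not tested.

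Slc27a1 measured 5229.8, 5522 and 6915 in WT Cold and 3747, 4801 and 3109 in the GCN2 KO Cold-labelled libraries, which were all lower. The log2 difference was -0.61 (SE 0.17), with an adjusted p of 0.177 in limma and 0.0354 in DESeq2. Angptl4 was lower without overlap as well, at 4004, 4386 and 6403 against 3178, 3743 and 3974, a log2 difference of -0.42 (SE 0.18) with an adjusted p of 0.324 in limma and 0.222 in DESeq2, and the nearest values of the groups were close. Without WT Cold C its log2 difference was -0.21. Over all genes of this table, 22.01% had groups without overlap. Slc27a1 is also expressed in skeletal muscle, and all 14 muscle markers were lower without overlap in the GCN2 KO Cold-labelled libraries (median log2 difference -1.96, 2 of 14 called by limma). Their summed level was 1528, 1174 and 368 CPM there, against 4442, 4023 and 2665 in WT Cold. Their part in the Slc27a1 difference was not tested. The library labelled GCN2 KO Cold C had the lowest muscle sum, the lowest Slc27a1 and the highest Fabp3 of the 9 libraries.

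**Figure D4:**
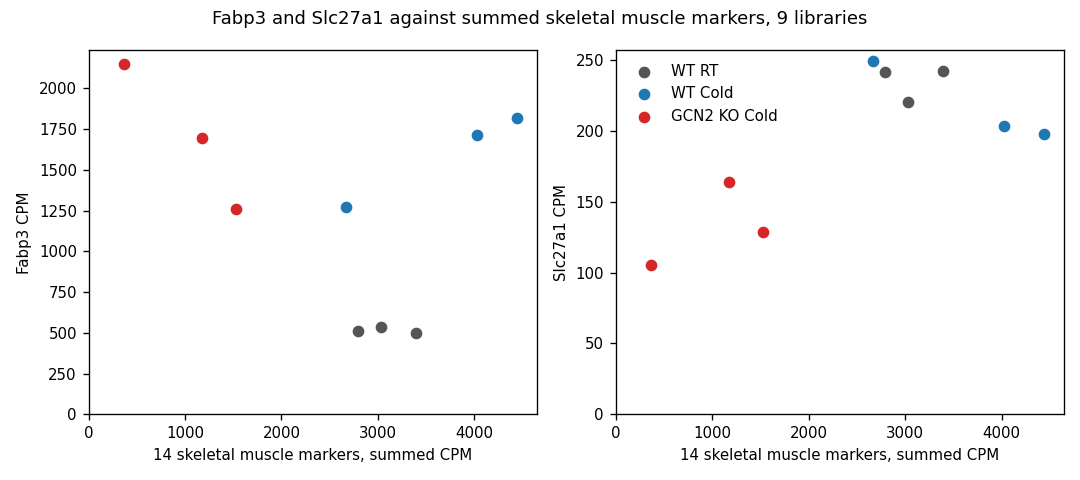
CPM of Fabp3 (left) and Slc27a1 (right) against the summed CPM of 14 skeletal muscle markers, 1 point per library, coloured by group. The GCN2 KO Cold-labelled libraries lie at muscle sums of 368 to 1528, where Fabp3 is above every WT RT library and Slc27a1 is below each wild-type library.

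The third comparison set the GCN2 KO Cold-labelled libraries against WT RT, where genotype and temperature both differ. Over 16560 genes, 6 members were higher, against 16.4% of all genes, and 3 were lower, against 17.8%. With an absolute log2 fold change over 1 as well, 3 members passed (Lpl, Gpihbp1 and Fabp3), against 10.6%. Lpl averaged 97391 ± 5236 normalized counts (SD, n = 3) in WT RT and 293777 ± 6650 in the GCN2 KO Cold-labelled libraries, a log2 fold change of 1.59 (SE 0.12, limma adjusted p = 0.00012). Fabp3 had the highest log2 fold change again, 1.89 (SE 0.18, limma adjusted p = 0.000269), with 13195, 14137 and 14513 in WT RT and 38982, 53042 and 67143 in the GCN2 KO Cold-labelled libraries. All 14 muscle markers were lower without overlap in the same comparison, at 368 to 1528 CPM summed against 2797 to 3396, where 49.2% of all genes had groups without overlap. The part of muscle in the Fabp3 result was not tested. Gpihbp1 (log2 fold change 1.15) and Cd36 (0.65) were higher with adjusted p of 0.000198 and 0.00307 in limma, and endothelial markers gave 3 of 12 higher and 2 lower.

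Fabp4 was higher at 407530.0, 423230.0 and 414122 in the GCN2 KO Cold-labelled libraries against 268377, 273073 and 294384 in WT RT (log2 fold change 0.58, SE 0.14, limma adjusted p = 0.0157). Vldlr was higher at 5425, 7533 and 6304 against 4787, 4039 and 5121 (log2 fold change 0.46, SE 0.13, limma adjusted p = 0.0294). When reads were scaled to the library total, the median of all genes moved from 0.009 to -0.15 and both calls were lost, with log2 fold changes of 0.37 for Fabp4 (adjusted p = 0.064) and 0.26 for Vldlr (adjusted p = 0.132). The Fabp4 call was also lost without GCN2 KO Cold B (0.56, adjusted p = 0.0547), without WT RT A (0.55, 0.0655) or without WT RT B (0.56, 0.0529). The Vldlr call was lost without GCN2 KO Cold B (0.34, adjusted p = 0.0794), without GCN2 KO Cold C (0.47, 0.064), without WT RT A (0.48, 0.0657) or without WT RT B (0.36, 0.0959). It was also lost in limma without the mean-variance trend (adjusted p = 0.0835).

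Angptl4, Fabp5 and Slc27a1 were lower. Angptl4 gave 3368, 3986 and 4195 in the GCN2 KO Cold-labelled libraries and 7103, 5324 and 6892 in WT RT, without overlap (log2 fold change -0.74, SE 0.13, limma adjusted p = 0.00347). Per 100 Lpl transcripts it stood at 1.63 ± 0.15 (SD, n = 3) in these libraries. Fabp5 gave 2654, 2232 and 2079 against 3077, 3996 and 4543 (log2 fold change -0.73, SE 0.15, limma adjusted p = 0.00696), and 8 of 10 macrophage markers were lower and 1 higher in the same comparison. Slc27a1 measured 3970.3, 5114 and 3282 against 6441, 5794 and 6832 (log2 fold change -0.65, SE 0.15, limma adjusted p = 0.0121), and 12 of 14 muscle markers were called lower. Lmf1 did not pass (log2 fold change 0.09, interval -0.12 to 0.31, limma adjusted p = 0.477). The comparisons share libraries, so their values are set side by side only: in WT Cold against WT RT the log2 fold changes of Angptl4, Fabp5 and Slc27a1 were -0.32, -1.22 and -0.04.

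**Figure D5:**
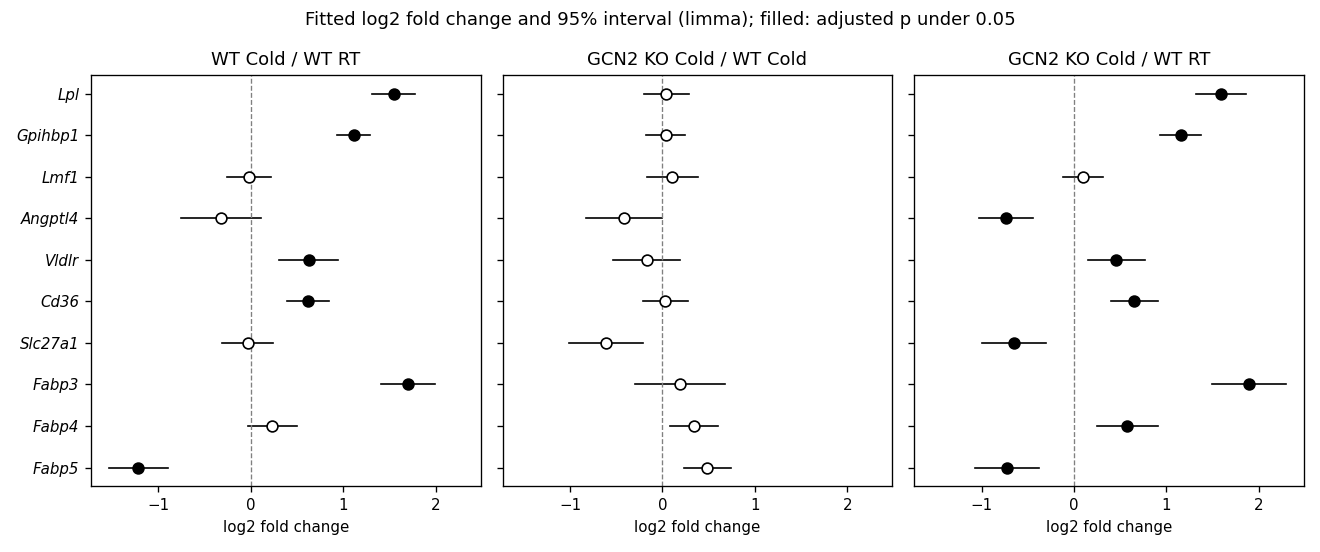
Log2 fold change of each gene in the 3 comparisons, with 95% intervals from limma and filled circles at an adjusted p under 0.05. In the panels against WT RT, 6 and 9 circles are filled, with Fabp3 at 1.70 and 1.89, and in GCN2 KO Cold against WT Cold 0 are filled.

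Other genes of the pathway were counted from 6 lists. The shares to read these counts against are those of all genes: 13.6% higher and 14.1% lower in WT Cold against WT RT, and 16.4% and 17.8% in the GCN2 KO Cold-labelled libraries against WT RT. Several of the counts are near or below these shares. Among genes that process or regulate Lpl and its relatives, 4 of 17 tested were higher in WT Cold and 2 were lower, both against WT RT. Sdc4, a heparan sulfate proteoglycan of the cell surface, went from 2302 ± 296 normalized counts (SD, n = 3) to 8043 ± 330, a log2 fold change of 1.81. Lipg, endothelial lipase, went from 218 ± 54 to 501 ± 79 (1.21) and Pcsk5, a proprotein convertase, from 310 ± 80 to 583 ± 124 (0.92). In the GCN2 KO Cold-labelled libraries, 5 were higher and 2 lower than in WT RT, with Sdc4 at 1.89, Lipg at 1.11 and Apoc1, an apolipoprotein that inhibits lipase action, at 0.84. Among 15 lipoprotein receptors and transfer proteins, 5 were higher and 4 lower in WT Cold. Sorl1, a sorting receptor, fell by 1.92 on the log2 scale, whereas Mylip, which targets lipoprotein receptors for degradation, was higher by 0.81 and Scarb2, a lysosomal membrane protein, by 0.76. Against WT RT the GCN2 KO Cold-labelled libraries had 4 higher and 7 lower, with Sorl1 at -1.61 and Abca1, the cholesterol exporter, at -1.13.

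Among 13 tested fatty acid transport proteins and acyl-CoA synthetases, 4 were higher and 2 lower in WT Cold. Acss2, the cytosolic acetyl-CoA synthetase, went from 13729 ± 937 normalized counts (SD, n = 3) to 2565 ± 239, a log2 fold change of -2.42. Its mitochondrial counterpart Acss1 was higher by 0.99 and Slc27a2, the transport protein FATP2, by 0.70, whereas Slc27a1 differed by -0.04. In the GCN2 KO Cold-labelled libraries against WT RT, 4 were higher and 2 lower, with Acss2 at -1.69, Acss1 at 1.18 and Slc27a2 at 0.60. Of 12 other lipid and acyl-CoA binding proteins tested, 1 was higher (Rbp7, a retinol binding protein, 1.45) and 1 lower (Acbd4, an acyl-CoA binding protein, -1.07) in WT Cold. Of 13 tested in the GCN2 KO Cold-labelled libraries, 2 were higher and 2 lower than in WT RT, led by Rbp7 (1.69), Acbd4 (-0.85) and Got2 (-0.42), the mitochondrial aspartate aminotransferase, also known as a plasma membrane fatty acid binding protein.

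Caveolae are membrane pits in which Cd36 can reside, and 4 of their 10 listed genes were higher and 2 lower in WT Cold. Cavin4, the muscle cavin, was higher by 1.55 and Cav1, the main caveolin of adipocytes and endothelium, by 0.62, whereas Ehd2, which stabilises caveolae, was lower by 0.59 on the log2 scale (log2 fold change -0.59). The GCN2 KO Cold-labelled libraries had 2 higher and 3 lower than WT RT, led by Cavin1 (-0.71), Cav1 (0.67) and Ehd2 (-0.58). Among 15 transcription factors of the PPAR family and partners, 5 were higher and 3 lower in WT Cold. Ppargc1a, the coactivator of thermogenic genes, was higher by 2.70, and Srebf1 and Cebpa, which drive lipid synthesis and adipocyte differentiation, differed by -1.23 and -0.98. Against WT RT, 7 were higher and 3 lower in the GCN2 KO Cold-labelled libraries, with Ppargc1a at 2.77, Srebf1 at -1.53 and Cebpa at -0.95. In the GCN2 KO Cold-labelled libraries against WT Cold, 1 gene of all 6 lists passed with limma, Cavin4, at 306 ± 59 (SD, n = 3) in WT Cold and 65.1 ± 19.98 normalized counts in the GCN2 KO Cold-labelled libraries (log2 fold change -2.25, adjusted p = 0.0295), beside the lower muscle markers given above.

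Genes whose course over the 9 libraries was nearest to each member were found by the mean absolute difference of log2(CPM + 1), centred on WT RT, among 12934 genes with at least 50 reads per library on average. Nearest to Lpl were Tmem41a (0.10) and Ctcflos (0.12), and nearest to Gpihbp1 were Kcnk3 (0.079) and Eif1 (0.081). Fabp3 was followed by Adam12 (0.13) and Tmem37 (0.15), Cd36 by Rab3ip (0.050) and Cox10 (0.051), and Vldlr by Pla1a (0.071) and Epb41 (0.078). For Angptl4 they were Tbc1d17 (0.078) and Calcoco1 (0.080), and for Slc27a1 Bmp1 (0.098) and Galnt2 (0.10). For Fabp5 they were Tmem120b (0.094) and Gm26588 (0.11), for Fabp4 Coq7 and Tpi1 (both 0.037), and for Lmf1 Thap1 (0.032) and Dmxl2 (0.048). Among the members themselves the nearest pairs were Cd36 with Vldlr (0.17) and Cd36 with Fabp4 (0.18), followed by Lpl with Fabp3 (0.22), and the farthest pair was Fabp3 with Fabp5 (1.89).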

How the data were processed

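Brown adipose tissue RNA of 9 mice was prepared with a poly-A kit and sequenced in pairs. Per the paper and the submitters' processing notes, reads were trimmed (Trimmomatic 0.36), aligned (STAR 2.5.2b), counted on exons (featureCounts, Subread 1.5.2) and compared with DESeq2, and the notes name GRCm39. For each of 3 comparisons the authors deposited a signal per gene and library, namely reads scaled by a per-library size factor that differs between tables, with their fold changes and p-values, which were not used. Columns carry library codes and were assigned to groups by the tables they appear in and a given list of codes for each group, with no code tied to 1 sample, and 0 columns came from other samples. Whole reads were recovered for 100% of values (tolerance 1e-04). The title of 1 sample names both GCN2 KO and WT and no temperature, and its genotype and temperature labels were used. The p-values measure the spread between 3 samples per group.

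The main test, two-sided, was limma 3.58.1 with a mean-variance trend (R 4.3.3) on log2(value + 1), a scale that understates changes of low genes. DESeq2 1.42.0 and edgeR 4.0.16 on recovered reads were alternatives, and the fits were tested on simulated data. All 10 members and Eif2ak4 are named, and from each list the up to 3 largest changes that passed, with a mean of at least 50, of which 1 is not reported here. The members, lists and markers were chosen with earlier results of these data known. Of 16937 gene identifiers, 16900 were found in GENCODE M21 (GRCm38). Promoter windows are from RefSeq (GRCm38.p6).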

Additional observations from a re-analysis of the deposited data

How the results depend on the processing

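No called fold change changed sign under another setting. The number of members called in WT Cold against WT RT went from 6 to 3 with Bonferroni adjustment. In GCN2 KO Cold against WT Cold DESeq2 called 3 where limma called 0. In GCN2 KO Cold against WT RT the number went from 9 to 3 with the added threshold of an absolute log2 fold change over 1 and to 2 with Bonferroni adjustment, both stricter by construction. The cause of the difference between DESeq2 and limma was not tested. Leaving out 1 library at a time moved none of the 3 counts by over 1.5 times. Over all results and settings planned, 464 values kept their side of the threshold and their sign, 13 uncalled values changed sign, 5 became called and 28 lost their call. No paired analysis was possible because the columns carry library codes and no replicate number, so the fit with the replicate number as a block was not run. The number of libraries, 3 per group, limits the precision of each interval, and the share of counting error in it was not tested.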
